A study of Mus musculus with 30 samples.

Results

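The comparison set 4 RNA-seq libraries of definitive endoderm (DE) against 5 libraries of the epiblast stem cells (EpiSCs) from which such endoderm is made. All 9 came from mice of the strain C57BL/6, called B6 here, and they were chosen from the 30 samples of the series because they share 1 strain, 1 assay and 1 count table. The EpiSCs were at passage 5 to 10 and grew on feeder cells in N2B27 medium with Fgf2, ActivinA and NVP-TNKS656, an inhibitor of Wnt signalling. DE came from EpiSCs held for 16 h with ActivinA and the Wnt agonist CHIR99201, then for 24 h with ActivinA and the BMP inhibitor LDN193189. The labels also give 46 h for the whole protocol and do not explain the difference. Both groups were therefore exposed to ActivinA, and they differed in Fgf2, in Wnt and BMP manipulation and in sorting. The labels name feeders for EpiSCs alone. EpiSCs were lifted with collagenase, a step meant to leave feeders behind, and DE with accutase. DE cells were enriched for CXCR4 with magnetic beads, so the level of Cxcr4 is a property of the sort and is not treated as a result. The labels call the replicates biological without saying whether they are separate lines or cultures, so p-values measure the spread between these samples.

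EpiSCs are the cultured counterpart of the epiblast just before gastrulation, a state called primed pluripotency. Definitive endoderm is the germ layer that forms the lining of the gut and of its glands, and it arises at the primitive streak under high Nodal signalling, for which ActivinA is the usual substitute in culture. The lineage regulators of this step are well known. Gene groups of the secretory pathway, organelles, metabolism, signalling, adhesion and chromatin are described here in addition.

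The libraries held 25084505 to 29947841 counts in EpiSCs and 22829536 to 66563933 in DE, and 14085 genes passed the filter on low counts. Expression is given as CPM, the count of a gene scaled to a library of 1000000 counts. Values by library run in the order EpiSC replicates 1, 2, 4, 44 and 51, then DE replicates 2, 4, 44 and 51. A log2 change is DE against EpiSC with its standard error, and adjusted p-values are those of the quasi-likelihood test of edgeR, corrected after Benjamini and Hochberg over all 14085 genes. A gene rose or fell in the sentences below where its adjusted p was under 0.05. Of all genes tested, 31.5% passed as higher (4430) and 30.6% as lower (4307) in DE, and 55.6% had groups that did not overlap. These shares are the background for every count of members below. In bulk RNA, fewer cells of a type and less RNA per cell cannot be told apart.

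DE replicate 2 stood apart from the other DE libraries. It was the highest of the 4 in 36.3% of genes, and in 68.4% of the shortest genes, the first of 10 bins of equal size. Gene length, from start to end in the RefSeq gene table, moved with the change across all genes (Spearman's rho -0.275 over 13104 coding genes, which are not independent replicates and share the same libraries). The shortest bin, with a median length of 3.14 kb, had a median log2 change of 0.71. The longest bin, with a median of 215 kb, had -0.82. In DE replicate 2 the shortest bin lay 1.23 above the EpiSC mean on the log2 scale, against 0.44 to 0.55 in the other DE libraries. The labels give RNA integrity numbers of 9.5 to 10 over the RNA samples, with no value by library. For several gene groups that this library moved, counts are also given without it. For many lists the median is also given after subtracting the median change of genes of the same length bin, called the length-adjusted median. This alternative was added after the data were seen. A row at 0 in this table does not show absence, because 82 genes in EpiSCs and 99 in DE had at most 3 counts in 1 library and at least 200 in another of the same group.

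**Figure D1:**
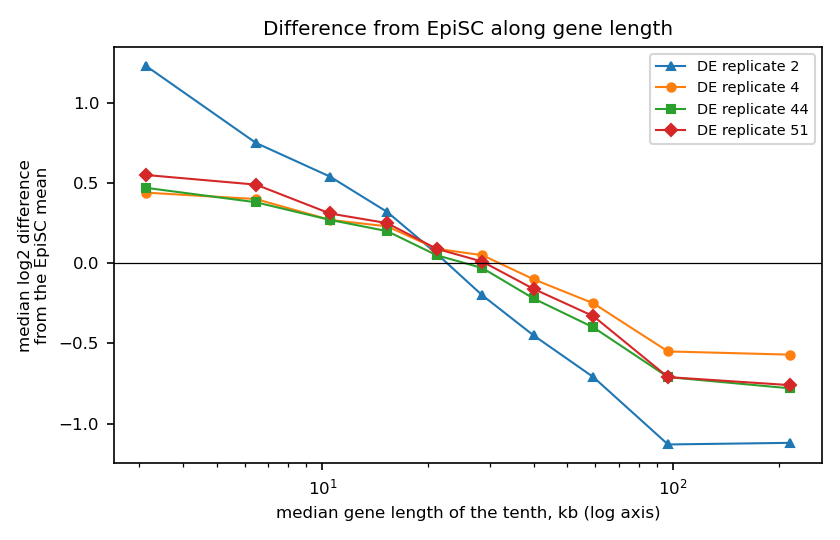
Median log2 difference of each DE library from the EpiSC mean (vertical axis) over 10 bins of genes by gene length in kb (horizontal axis, log scale), 1 line per DE replicate. All 4 lines run from above 0 in the shortest bin to below 0 in the longest, and DE replicate 2 is the steepest, from 1.23 in the shortest bin to -1.12 in the longest.

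The identity of both groups was checked on 3 markers. Sox17, a transcription factor that specifies endoderm, measured 8.88, 1.33, 8.73, 9.52 and 0.628 CPM in EpiSCs and 1462, 1128, 1369 and 1244 CPM in DE. Cer1, a secreted antagonist of Nodal, BMP and Wnt made by early endoderm, measured 161, 14.1, 139, 86.8 and 3.62 CPM in EpiSCs and 6156, 6722, 9591 and 3408 CPM in DE. Pou5f1, the pluripotency factor also called Oct4, measured 982, 1331, 1036, 985 and 1303 CPM in EpiSCs and 37.8, 6.34, 2.46 and 4.79 CPM in DE. All 3 genes separated the groups, and DE replicate 2 kept the most Pou5f1 of the DE libraries. The log2 changes were 7.80 ± 0.80 for Sox17 (adjusted p = 1.91e-05), 6.32 ± 1.00 for Cer1 (adjusted p = 3.16e-04) and -6.47 ± 0.85 for Pou5f1 (adjusted p = 9.65e-05), the last moving to -7.93 without DE replicate 2. Sox2, a second pluripotency factor, fell from 35.3 to 101 CPM in EpiSCs to 0.121 to 2.7 CPM in DE, by 6.21 on the log2 scale, or 7.28 without DE replicate 2. Of the definitive endoderm list, 19 of 22 tested members rose, and of the pluripotency list 17 of 24 fell. These lists restate the known lineage step. Cxcr4, on which the cells were sorted, measured 2.51 to 28.6 CPM in EpiSCs and 61.2 to 81.2 CPM in DE.

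Genes of the secretory pathway rose together. Secretory cells depend on the endoplasmic reticulum (ER), where the Sec61 channel admits new proteins and chaperones and disulfide isomerases fold them. Of 31 tested members, 26 rose and 2 fell, with a median log2 change of 1.31 and a length-adjusted median of 1.07. The summed level of the list was 14610 to 16490 CPM in DE and 6339 to 6979 CPM in EpiSCs. Hspa5, the main chaperone of the ER lumen, measured 639.7, 665, 576, 574 and 637 CPM in EpiSCs and 2707, 2674, 2520 and 2135 CPM in DE, a log2 change of 2.02 ± 0.12 (adjusted p = 9.60e-07). Every DE library lay far above every EpiSC library for Hspa5, and the spread within each group was small. Xbp1, a transcription factor that drives expansion of the ER, measured 47.2, 35.5, 46.7, 46.2 and 35.7 CPM in EpiSCs and 251, 264, 193 and 249 CPM in DE, a log2 change of 2.50 ± 0.15. Creb3l1, a membrane-bound factor cleaved to switch on secretory genes, measured 15, 12.8, 31.3, 26.4 and 15.6 CPM in EpiSCs and 107, 165, 234 and 82.3 CPM in DE, a log2 change of 2.86 ± 0.36. For both factors the lowest DE library lay above the highest EpiSC library.

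Members that rose act in import, folding and export. Sec61a1, the pore of the import channel, measured 282, 306, 309, 295 and 328 CPM in EpiSCs and 607, 1067, 1131 and 1014 CPM in DE, with DE replicate 2 the lowest of the DE libraries. Tram1, which assists import, rose by 1.77 on the log2 scale. The disulfide isomerases Pdia3 and P4hb rose by 1.39 and 1.59. Sar1a, the GTPase that starts vesicle budding from the ER, rose by 1.70, and Sec24d, which loads cargo into those vesicles, rose by 2.35. Kdelr2, the receptor that returns escaped chaperones to the ER, rose by 1.60. Sec61b and Sec61g, the small partners of the pore, did not move together. Sec61b measured 49.5 to 57 CPM in EpiSCs and 454, 116, 135 and 156 CPM in DE, so its log2 change of 2.00 became 1.34 without DE replicate 2. Sec61g fell, from 18.3 to 21.2 CPM in EpiSCs to 16.4, 4.51, 3.95 and 5.38 CPM in DE, a log2 change of -1.43 with all libraries and -2.12 without DE replicate 2.

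Lysosomal genes, the proton pump and tetraspanins were higher as groups. Lysosomes degrade endocytosed material, and the vacuolar ATPase acidifies them. Of 16 subunits of the pump, 13 rose and 1 fell, with a median log2 change of 1.14. Atp6v0b, in the membrane ring of the pump, measured 43.3, 42.2, 53.2, 44.3 and 51.5 CPM in EpiSCs and 277, 167, 159 and 202 CPM in DE, a log2 change of 2.10 ± 0.18 (adjusted p = 6.67e-06). Atp6v0c, of the same ring, rose by 1.79 and Atp6v1h, a regulatory subunit of the cytosolic part, rose by 1.49. Atp6v1a, the catalytic subunit, measured 165 to 197 CPM in EpiSCs and 125 to 196 CPM in DE and did not pass (adjusted p = 0.12), though it did without DE replicate 44 (log2 change -0.44, adjusted p = 0.016).

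Of 28 lysosome and autophagy genes, 16 rose and 2 fell, with a median of 0.78 and a length-adjusted median of 0.55. Lgmn, a lysosomal endopeptidase, measured 43.9, 35.8, 52.4, 46.6 and 43.1 CPM in EpiSCs and 242, 221, 203 and 123 CPM in DE, a log2 change of 2.15 ± 0.20. Ctsc, a lysosomal peptidase that activates other proteases, measured 1.02 to 4.03 CPM in EpiSCs and 14.7 to 34.6 CPM in DE. Among cathepsins, 7 of 11 rose and none fell, with a median of 1.13 and a length-adjusted median of 0.59. Map1lc3b, the protein that coats autophagosomes, rose by 2.65, and Sqstm1, which delivers cargo to them, rose by 1.33. Lamp1, the major membrane protein of lysosomes, rose by 0.88. Tfe3, a transcription factor that promotes lysosomal genes, fell by 1.02 on the log2 scale, from 126 to 190.5 CPM in EpiSCs to 43 to 91.5 CPM in DE. The factor and the group thus moved in opposite directions.

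Tetraspanins, membrane proteins that organise receptors into patches, rose in 14 of 17 members and fell in 2, with a median of 1.56. Tspan15, a partner of the protease ADAM10, measured 8.23, 3.69, 6.28, 7.02 and 3.07 CPM in EpiSCs and 161, 204, 271 and 155 CPM in DE, a log2 change of 5.12 ± 0.33. Tspan7, another member, measured 755 to 1013 CPM in DE against 80 to 135 CPM in EpiSCs. Proteasome subunits, which form the cell's main protein-degrading particle, rose in 30 of 37 members and fell in 1. Their median was 0.82, or 0.66 without DE replicate 2, where 27 rose and 4 fell. Psmc5, an ATPase of the regulatory cap, measured 178, 207, 165, 181 and 213 CPM in EpiSCs and 798, 500.3, 501 and 583 CPM in DE. Psma7, of the outer ring, measured 196 to 236 CPM in EpiSCs and 895, 364, 387 and 410.1 CPM in DE. DE replicate 2 was the highest for both subunits, and the other DE libraries still lay above all EpiSCs.

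Genes of serine synthesis, one-carbon metabolism and amino acid import were lower in DE. Many of them are known targets of ATF4, a transcription factor that cells raise when amino acids run short or the ER is stressed, and that binds an element of the form TGATGNAA. Of 35 tested genes of the list, 28 fell and none rose, with a median log2 change of -1.33 and a length-adjusted median of -1.41. Summed over the list, DE held 2469 to 3514 CPM and EpiSCs 5550 to 8202 CPM. The letters TGATGNAA, on either strand, occurred in the promoters of 12 of 31 members found in the RefSeq promoter table (38.7%). The share over the 27025 symbols in that table was 4.51%. The list was assembled with many known ATF4 targets, so a higher share was set by that choice and is not a result. Of the 25 members in that table that fell, 10 held the letters. Fgf21 and Pycr1, which were not called, held them too. The promoter was taken as 250 bases before to 50 after the start. A match describes the letters in this window and does not show binding. The element is shown for the 7 genes that fell and whose 40-base window lies wholly before the start. The 8 matching bases are in capitals, read 5′ to 3′ on the strand of the gene (RefSeq, build GRCm38.p6). They were found by the search itself, so apart from the base at N they are alike by construction.
Atf3, chr1:191183420-191183459, minus strand: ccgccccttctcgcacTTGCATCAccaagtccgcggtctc
Chac1, chr2:119351033-119351072, plus strand: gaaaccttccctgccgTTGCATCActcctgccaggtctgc
Slc7a11, chr3:50443656-50443695, minus strand: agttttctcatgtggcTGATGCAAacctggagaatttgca
Nupr1, chr7:126625557-126625596, minus strand: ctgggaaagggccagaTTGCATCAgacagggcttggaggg
Pck2, chr14:55540147-55540186, plus strand: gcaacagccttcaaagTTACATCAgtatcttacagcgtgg
Vldlr, chr19:27216804-27216843, plus strand: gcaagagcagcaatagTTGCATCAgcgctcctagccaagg
Got1, chr19:43524684-43524723, minus strand: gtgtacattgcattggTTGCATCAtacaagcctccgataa
In the Slc7a11 window shown the element reads as TGATGCAA on the strand of the gene, and a second match in that promoter, 47 bases before the start, reads as TTGCATCA. In the other 6 genes it reads as the reverse complement, TTGCATCA or, in Pck2, TTACATCA.

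Several transcriptional regulators of the list fell. Atf4 itself measured 547, 498, 564, 564 and 454 CPM in EpiSCs and 310.5, 193, 189 and 198 CPM in DE, a log2 change of -1.24 ± 0.18 (adjusted p = 1.63e-04). Atf5, a related factor, measured 38.2, 43.8, 46.9, 48.9 and 44 CPM in EpiSCs and 4.37, 3.23, 1.52 and 3.41 CPM in DE, a log2 change of -3.82 ± 0.29. No library of one group reached the other for either gene. Atf3, a stress factor, measured 14.2 to 25.1 CPM in EpiSCs and 5.14 to 9.62 CPM in DE, and Nupr1, another, measured 3 to 9.13 CPM and 2.29, 0.298, 0.391 and 0.531 CPM. The log2 change of Nupr1 was -2.64, and -3.69 without DE replicate 2. The stress factors Ddit3 and Cebpb did not pass, with log2 changes of -0.84 and 0.80.

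Among the enzymes, Psat1, which makes phosphoserine, measured 1037, 1005, 957, 1054 and 776 CPM in EpiSCs and 127, 194, 132 and 243 CPM in DE, a log2 change of -2.47 ± 0.22 (adjusted p = 8.39e-06). Shmt2 and Mthfd2, which pass the serine carbon into folate inside mitochondria, fell by 2.00 and 1.63 on the log2 scale. Pck2, the mitochondrial enzyme that makes phosphoenolpyruvate, was listed at 0 in all 4 DE libraries and measured 45.1, 60.3, 65.9, 74.5 and 35.3 CPM in EpiSCs. With DE at 0, no fold is given for Pck2. Chac1, which degrades glutathione, measured 57.5, 91.5, 87.8, 113 and 58.5 CPM in EpiSCs and 8.49, 12.8, 12.1 and 14.6 CPM in DE. Got1, an aspartate aminotransferase, showed a smaller and even fall, from 118 to 160.1 CPM in EpiSCs to 72 to 78 CPM in DE. Cth, which makes cysteine, measured 28 to 95.3 CPM in EpiSCs and 3.81, 10.5, 3.87 and 0.0607 CPM in DE, with a log2 change of -3.50 that became -4.38 without DE replicate 4.

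Of the 8 amino acid transporter genes of the list 5 fell. Slc3a2, Slc1a5 and Slc38a2 did not pass, with log2 changes of -0.02, -0.20 and 0.06. Slc7a1, a carrier of arginine and lysine, measured 220.4, 195, 251, 239 and 151 CPM in EpiSCs and 9.51, 18.6, 11.1 and 23.4 CPM in DE, a log2 change of -3.75 ± 0.31. Slc7a5, a carrier of large neutral amino acids, measured 964, 779, 1201, 1145 and 678 CPM in EpiSCs and 69.5, 227, 111 and 293 CPM in DE, a log2 change of -2.44 ± 0.40. Slc7a11, the cystine importer, measured 16.7 to 26.9 CPM in EpiSCs and 15.8, 2.29, 6.38 and 1.73 CPM in DE. DE replicate 2 came close to the EpiSC range for Slc7a11. Its log2 change of -1.65 ± 0.58 (adjusted p = 0.03) was no longer called in 5 of 9 fits with a library removed, and was -2.56 without DE replicate 2.

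**Figure D2:**
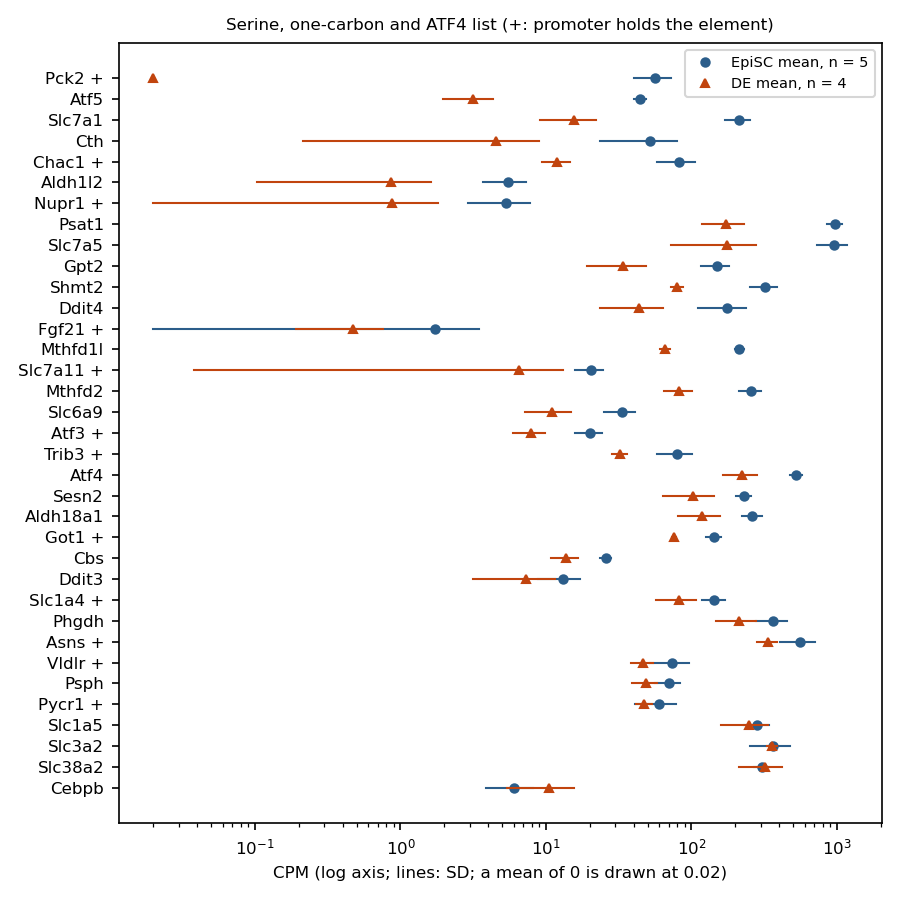
Mean level in CPM (log axis, bars are the SD) of each tested member of the serine, one-carbon and ATF4 list in the 5 EpiSC and 4 DE libraries, with a plus sign by members whose promoter holds TGATGNAA. A mean of 0 (Pck2 in DE) is drawn at 0.02, and all 28 members that passed the test have the DE mean below the EpiSC mean.

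The transcripts of the respiratory chain split by genome. The chain is assembled from proteins encoded in mitochondrial DNA and a larger number encoded in the nucleus. The 13 mitochondrially encoded protein genes summed to 8156 to 11370 CPM in DE and 25070 to 30070 CPM in EpiSCs, and 10 of them fell and 1 rose, against 12 and 0 without DE replicate 2. mt-Co1, of complex IV, measured 9235, 9173, 11330, 11150 and 9404 CPM in EpiSCs and 2091, 1912, 2119 and 2187 CPM in DE, a log2 change of -2.28 ± 0.13 (adjusted p = 7.25e-07). mt-Nd5, of complex I, measured 1563 to 2163 CPM in EpiSCs and 538 to 596 CPM in DE, and mt-Cytb, of complex III, 3020 to 3800 CPM and 1377 to 1792 CPM. mt-Co3 measured 1354 to 1651 CPM in EpiSCs and 1903, 859, 1198 and 1152 CPM in DE and did not pass (adjusted p = 0.25). DE replicate 2 was the highest library, and without it mt-Co3 passed as lower (log2 change -0.53, adjusted p = 0.0048).

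Nuclear subunits did not follow. Of 37 nuclear subunits of complex I, 20 rose and 1 fell, with a median of 0.84. Without DE replicate 2 the counts were 15 and 4 and the median 0.31, and the length-adjusted median with all libraries was 0.35. Ndufv1, which binds NADH, measured 88.7 to 102 CPM in EpiSCs and 329, 170.4, 182 and 196 CPM in DE. It was highest in DE replicate 2 and also above the EpiSC range in the other DE libraries. Ndufs4, an accessory subunit, fell from 16.7 to 24.2 CPM in EpiSCs to 7.86 to 9.85 CPM in DE.

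The counts of other nuclear groups of the mitochondrion also moved without DE replicate 2. Subunits of complexes III to V rose in 19 and fell in 2 of 39, with a median of 0.67. Without that library 18 rose and 9 fell, with a median of 0.07, and the length-adjusted median was 0.01. Mitochondrial ribosomal proteins, which translate the 13 genes, rose in 45 and fell in 1 of 77, and in 37 and 4 without it.

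Cytosolic ribosomal proteins were lower in DE, by an amount that this library changed. Their sum was 47010 to 55190 CPM in EpiSCs, 49530 CPM in DE replicate 2 and 17740 to 23650 CPM in the other DE libraries. With all libraries 55 of 84 fell and 2 rose, with a median of -1.30. Without DE replicate 2, 74 fell and 2 rose, with a median of -1.83. The length-adjusted median with all libraries was -2.01. Many processed copies of these genes exist in the genome, and how reads were split between copies is not given in the sources used here.

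**Figure D3:**
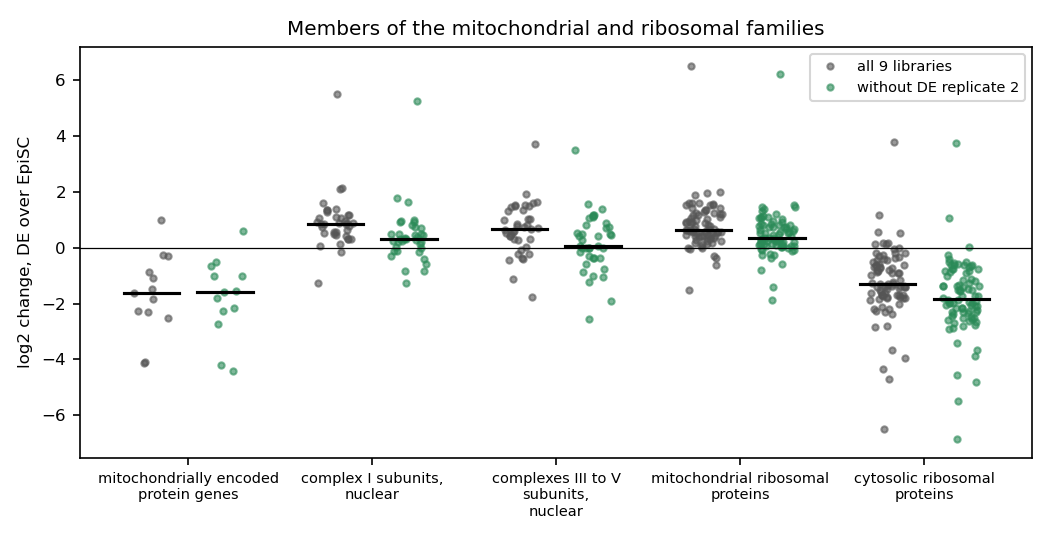
Log2 change of each tested member in 5 gene families, with all 9 libraries (grey) and without DE replicate 2 (green), bars marking medians. The median of the cytosolic ribosomal proteins moves from -1.30 to -1.83 and that of complexes III to V from 0.67 to 0.07, while the mitochondrially encoded genes stay near -1.6.

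Translation factors fell more often than they rose, with 12 of 25 down and 6 up and a median of -0.39. In the fit without DE replicate 2, 6 rose and 16 fell, with a median of -0.68. Eef1a1, which brings aminoacyl-tRNA to the ribosome, measured 11870, 10830, 11780, 10780 and 11020 CPM in EpiSCs and 7313, 4294, 3961 and 4441 CPM in DE. Pabpc1, the poly(A)-binding protein, fell from 1875 to 2183 CPM in EpiSCs to 280.3 to 611 CPM in DE. Eef2, which moves the ribosome along, fell by 1.22 on the log2 scale, and Eif4ebp2, an inhibitor of cap-dependent initiation, fell by 2.32. The list thus held both activators and an inhibitor among the genes that fell.

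Isoforms of glycolytic enzymes changed in opposite directions. Of 25 tested, 10 rose and 6 fell. Hk2, the inducible hexokinase, measured 299, 342, 340.2, 384 and 263 CPM in EpiSCs and 42.8, 83.7, 43.6 and 72.3 CPM in DE, a log2 change of -2.43 ± 0.24 (adjusted p = 1.51e-05). Hk1, the widely expressed hexokinase, measured 30.3, 36, 45.1, 49.9 and 45.3 CPM in EpiSCs and 86.3, 137, 176 and 64.8 CPM in DE, a log2 change of 1.49 ± 0.28. The same contrast held at phosphofructokinase, where Pfkp fell from 46.1 to 101 CPM in EpiSCs to 7.34 to 17.8 CPM in DE and Pfkl rose from 271 to 469 CPM in EpiSCs to 533 to 1214 CPM in DE. Pfkfb3, which makes an activator of phosphofructokinase, fell by 2.54 on the log2 scale. The glucose carriers Slc2a1 and Slc2a3 rose by 1.85 and 2.41, and Ldha, which reduces pyruvate to lactate, rose from 2073 ± 204 CPM (SD, n = 5) to 7304 ± 2006 CPM (SD, n = 4). Slc2a3 varied widely within DE, at 2420, 4248, 4472 and 988 CPM.

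In a list of the citric acid cycle, glutamine and related enzymes 12 of 24 rose and 6 fell. Idh1, the cytosolic isocitrate dehydrogenase that makes NADPH, measured 156, 132, 123, 112 and 111 CPM in EpiSCs and 724, 639.9, 789 and 617 CPM in DE, a log2 change of 2.45 ± 0.15. Mdh2 and Sdhb, enzymes of the cycle, rose by 1.14 and 1.27. Glul, which makes glutamine from glutamate, fell by 1.60 on the log2 scale. Of 26 pentose phosphate and nucleotide genes 7 rose and 10 fell, shares near the background. Prps1, which makes the activated ribose for nucleotides, measured 143, 146, 153, 152 and 146 CPM in EpiSCs and 3.25, 5.61, 1.96 and 5.86 CPM in DE, a log2 change of -5.13 ± 0.33 (adjusted p = 1.26e-06). Its paralogue Prps2 fell from 95.8 to 107 CPM in EpiSCs to 2 to 8.4 CPM in DE, and the purine enzymes Atic and Pfas fell by 2.97 and 2.12. Rrm2, the regulated subunit of ribonucleotide reductase, rose by 0.71, and Pgls, of the pentose phosphate pathway, rose by 2.69.

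Lipid genes were counted by pathway. Cholesterol synthesis and uptake rose in 16 and fell in 1 of 25, with a median of 0.89 and a length-adjusted median of 0.60. Without DE replicate 2, 19 rose and 1 fell, with a median of 0.82. Acat2, at the entry to the pathway, measured 176, 193, 152, 148 and 135 CPM in EpiSCs and 608, 599, 650.9 and 708 CPM in DE, a log2 change of 2.00 ± 0.14. Cyp51 and Tm7sf2, which act on lanosterol and its product, rose by 1.70 and 2.21. The letters TCACNCCAC, a form of the sterol response element, were found on either strand in 1 of 17 promoters of the list (5.88%), that of Hmgcs1. The share over all symbols was 1.44%. Members of this list too are known to share an element, so the shares are a description only.

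Of 13 tested genes of fatty acid synthesis 6 fell and 3 rose, and of 9 of oxidation 7 rose and 1 fell. Acaca, which makes malonyl-CoA, measured 394, 364, 326, 318 and 310.2 CPM in EpiSCs and 27.5, 52.6, 15.4 and 55.2 CPM in DE, a log2 change of -3.18 ± 0.36 (adjusted p = 3.45e-05). Fasn, the fatty acid synthase, fell from 272 to 437 CPM in EpiSCs to 71.6 to 113 CPM in DE. Among enzymes of oxidation, Acadvl, for very long chains, rose from 15.2 to 21.5 CPM in EpiSCs to 39.8 to 79.5 CPM in DE and Etfa, which takes up the electrons, rose by 2.09. Srebf1, a factor that promotes lipid synthesis, rose by 1.02, in the direction opposite to Acaca and Fasn. Redox and iron genes rose in 13 and fell in 5 of 27. Fth1, the heavy chain of ferritin, measured 305 to 405 CPM in EpiSCs and 3187, 1307, 1346 and 1855 CPM in DE, and Gpx1, a glutathione peroxidase, 119.6 to 186 CPM and 1124, 466, 459 and 587 CPM. Both were highest in DE replicate 2 and above the EpiSC range in all 4 DE libraries.

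Signalling genes were described by pathway and role. In the Nodal pathway 10 of 26 members rose and 8 fell. The ligand Nodal measured 54.9, 73.2, 45.9, 52.6 and 98.2 CPM in EpiSCs and 259.8, 205, 244 and 210.0 CPM in DE, a log2 change of 1.82 ± 0.22 (adjusted p = 5.77e-05). Lefty1, a secreted antagonist of Nodal and one of its targets, measured 99, 60.9, 74, 88.4 and 82.1 CPM in EpiSCs and 11510, 6321, 8174 and 5861 CPM in DE, a log2 change of 6.62 ± 0.26 (adjusted p = 2.99e-07). Lefty2, its neighbour in function, rose from 9.64 to 32.1 CPM in EpiSCs to 323 to 2082 CPM in DE. Ligand and antagonists thus rose together.

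The receptor side of the pathway exchanged members. The coreceptor Tdgf1 fell from 436 to 994 CPM in EpiSCs to 140.3 to 168 CPM in DE, and its relative Cfc1 rose from 0.222 to 14.3 CPM in EpiSCs to 190.3 to 394 CPM in DE. The type II receptor Acvr2b rose from 0.341 to 4.43 CPM in EpiSCs to 70.1 to 104 CPM in DE, and the type I receptor Acvr1b fell from 48.3 to 66.4 CPM in EpiSCs to 11.5 to 19.5 CPM in DE. Of the inhibitors, Smad7 fell by 2.79 on the log2 scale and Bambi, a receptor without a kinase, rose by 4.50.

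BMP signalling members rose in 7 and fell in 10 of 26, close to the background in both directions. The ligand Bmp2 measured 41.2, 7.96, 44.6, 20.8 and 4.21 CPM in EpiSCs and 374, 449, 539 and 467 CPM in DE, a log2 change of 4.27 ± 0.63. Bmp7 rose by 3.32. Within EpiSCs both ligands were lowest in replicates 2 and 51, and every EpiSC library lay below every DE library. Smad1, the transducer, rose from 25.6 to 32.3 CPM in EpiSCs to 323 to 498 CPM in DE and Id3, a common target, from 15 to 22 CPM in EpiSCs to 147 to 427 CPM in DE. The DE medium held a BMP inhibitor in its second step. Bmpr1a, a receptor, fell by 1.15 on the log2 scale. In the Wnt pathway 15 of 43 rose and 13 fell. The secreted antagonists Dkk1 and Sfrp5 rose, Dkk1 from 0.702 to 15.6 CPM in EpiSCs to 217 to 725 CPM in DE and Sfrp5 from 0.111 to 1.59 CPM in EpiSCs to 9.5 to 61.4 CPM in DE, a log2 change of 5.91 that was 6.83 without EpiSC replicate 44. The coreceptor Lrp5 fell from 113 to 169 CPM in EpiSCs to 1.22 to 14.2 CPM in DE.

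In FGF signalling 12 of 15 feedback genes fell and 1 rose. Over the whole list of 27 members 6 rose and 15 fell, with a median of -1.07, and Fgf2 was an ingredient of the EpiSC medium only. Spry2, an inhibitor induced by FGF, measured 178, 206, 157, 208 and 234 CPM in EpiSCs and 5.14, 2.14, 2.07 and 1.55 CPM in DE, a log2 change of -6.21 ± 0.39 (adjusted p = 1.25e-06). Dusp6, a phosphatase of ERK also induced by FGF, fell from 304 to 697.6 CPM in EpiSCs to 176 to 217 CPM in DE. Spry1 was the feedback gene that rose, from 13 to 34.1 CPM in EpiSCs to 82.4 to 128 CPM in DE. Among ligands, Fgf8 measured 8.76, 26.6, 8.19, 13.8 and 26.3 CPM in EpiSCs and 1225, 666, 694.7 and 646 CPM in DE, a log2 change of 5.59 ± 0.45, and Fgf5 rose by 2.91. Fgf4 measured 10.5 to 27.3 CPM in EpiSCs, 0.407 CPM in DE replicate 2 and 0 in the other DE libraries. Among receptors, Fgfr1 fell from 156 to 312 CPM in EpiSCs to 7.71 to 55.2 CPM in DE and Fgfr2 rose from 3.24 to 5.8 CPM in EpiSCs to 23.8 to 58 CPM in DE. The fall of Fgfr1, -3.04 on the log2 scale, was -3.72 without DE replicate 51.

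**Figure D4:**
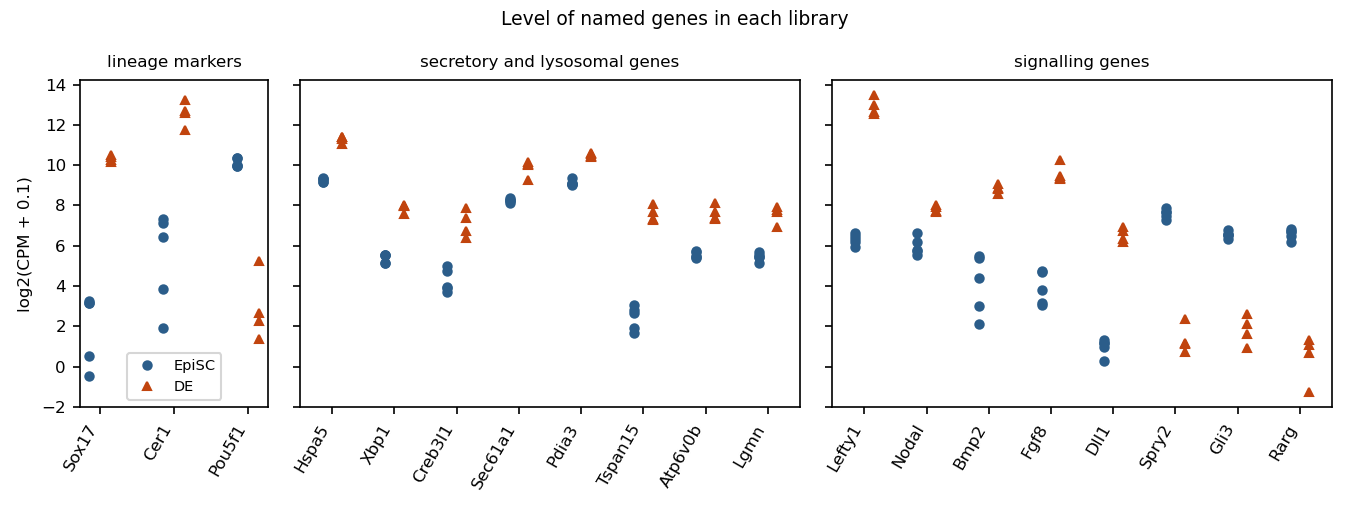
Level on the log2(CPM + 0.1) scale of 3 markers, 8 secretory and lysosomal genes and 8 signalling genes in each library, EpiSCs as circles and DE as triangles. No gene shown has overlapping groups, and Spry2, Gli3, Rarg and Pou5f1 are the genes lower in DE.

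In the Notch pathway, through which neighbouring cells signal by contact, 10 of 18 rose and 4 fell. The ligand Dll1 measured 2.16, 2.13, 1.84, 1.1 and 2.44 CPM in EpiSCs and 81.7, 106, 120.4 and 71.5 CPM in DE, a log2 change of 5.62 ± 0.27 (adjusted p = 3.89e-07). Dll3, a ligand that acts within the cell, rose by 3.34, Mfng, which modifies the receptors, by 3.96, and the target Hes1 by 2.83. The receptors Notch1 and Notch2 fell, from 36.5 to 63.4 CPM in EpiSCs to 0.861 to 6.37 CPM in DE and from 81.7 to 117 CPM in EpiSCs to 16 to 32.6 CPM in DE. Ligand and target rose while 2 receptors fell.

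Hedgehog members fell in 8 and rose in 2 of 14, with a median of -2.11 and a length-adjusted median of -1.56. Gli3, the factor that represses targets without the ligand, measured 91.6, 94.6, 79.9, 92.7 and 109.5 CPM in EpiSCs and 4.17, 3, 1.8 and 6.11 CPM in DE, a log2 change of -4.62 ± 0.34. The coreceptor Cdon fell by 3.33 on the log2 scale while Gas1, another coreceptor, rose by 2.46. Ptch1, receptor and target at once, fell from 136, 36.5, 90.6, 74.2 and 28.6 CPM in EpiSCs to 16.5, 26.5, 15.7 and 23.9 CPM in DE, with a wide spread among EpiSCs. Retinoic acid genes did not move as a list, with 3 up and 4 down of 14, and the receptors exchanged. Rarg measured 73.3, 114, 90.3, 106 and 102 CPM in EpiSCs and 1.53, 2.39, 0.313 and 1.97 CPM in DE, and Rarb 0.0739 to 0.91 CPM and 6.63 to 22.6 CPM. Stra6, which imports vitamin A, rose by 5.05, and Cyp26a1, which degrades retinoic acid, rose by 3.90, or 4.53 without EpiSC replicate 4.

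Hippo pathway members fell in 12 and rose in 2 of 21, and the median of -0.96 was -0.46 after length adjustment. The effector Yap1 fell from 232 to 252 CPM in EpiSCs to 47.4 to 98.2 CPM in DE and its partner Tead1 from 96.5 to 203 CPM in EpiSCs to 14.4 to 21.8 CPM in DE. The target Ccn1 and the regulator Amot were the members that rose, by 1.65 and 1.87. Among other receptors, Kit, the receptor of stem cell factor, measured 20.2 to 55.7 CPM in EpiSCs and 173, 693, 599.8 and 584 CPM in DE, lowest of the DE libraries in replicate 2. Ackr3, which shares its ligand with CXCR4, rose from 1.29 to 7.28 CPM in EpiSCs to 94.6 to 116 CPM in DE. Pth1r, the receptor of parathyroid hormone and its relative, was listed at 0 in all EpiSC libraries and measured 41.8, 47.4, 82.1 and 24.2 CPM in DE. Apela, a peptide ligand, and Epha1, an ephrin receptor, fell by 3.46 and 5.01 on the log2 scale.

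Adhesion and matrix genes were lower in most groups, and markers of fibroblasts, the cell type of which feeders usually consist, moved with the same comparison. The summed level of a fibroblast list was 1175 to 11160 CPM in EpiSCs, lowest in replicate 1 and highest in replicate 51, and 758 to 1317 CPM in DE (two-sided exact permutation test, p = 0.0317, adjusted p = 0.0635 over 4 marker lists). The smallest p this design allows is 0.00794. Of 29 tested members of that list 22 fell, and 15 without EpiSC replicate 51. Thy1, a defining fibroblast surface marker, measured 43.5 ± 39.2 CPM in EpiSCs and 0.0461 ± 0.0714 CPM in DE. In EpiSC replicate 1, which held the least of these markers, 8 of those 22 genes still lay above every DE library. The part of the feeders in the groups below was not tested.

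Integrins, the receptors for matrix, fell in 9 of 15 and rose in none, with a median of -1.24 and a length-adjusted median of -0.85. In 8 of those 9, EpiSC replicate 1 lay above all DE libraries. Itga3 and Itga6, which bind laminin, measured 203, 122, 399, 182 and 132 CPM and 204, 196, 248, 183 and 217 CPM in EpiSCs and 4.94 to 6.82 CPM and 10.4 to 26.4 CPM in DE. Collagens fell in 18 and rose in 6 of 35, and 15 of the 18 that fell were highest in EpiSC replicate 51. For collagens, EpiSC replicate 1 lay above all DE libraries in 7 of the 18. The collagen median was -1.75, and -0.93 after length adjustment. Col23a1, a membrane collagen, went against its group and rose from 1.14 to 1.88 CPM in EpiSCs to 72 to 199.5 CPM in DE, a log2 change of 6.64 ± 0.34 (adjusted p = 4.40e-07). Basement membrane genes fell in 12 and rose in 3 of 24, with medians of -0.69 before and -0.35 after length adjustment. Without DE replicate 2, 3 rose and 9 fell, with a median of -0.54. Hspg2, which encodes perlecan, measured 153, 371, 372, 368 and 436 CPM in EpiSCs and 9.04 to 27.9 CPM in DE, and the laminin chain Lamb1 rose by 1.20.

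Epithelial genes did not fall as a group. Of 38 junction and keratin genes 12 rose and 8 fell, and of 13 tested keratins 9 rose and none fell. The other 37 of 50 keratins did not pass the filter on low counts. With at least 10 counts in every library, 5 keratins remained, of which 4 rose and none fell, with a median of 3.8. A keratin can pass the first filter through its DE counts alone, so these counts do not give the direction of the family. Krt8, a keratin of simple epithelia, measured 174, 30.9, 305, 82.2 and 14.2 CPM in EpiSCs and 2439, 1891, 1725 and 2100 CPM in DE, a log2 change of 4.07 ± 0.76, and 4.75 without EpiSC replicate 4. Its partner Krt18 rose by 3.87 and Krt7 by 4.65. Cdh1, the epithelial cadherin, measured 481 to 749 CPM in EpiSCs and 536 to 1073 CPM in DE and did not pass (adjusted p = 0.15), though it did as higher without DE replicate 2 (log2 change 0.55, adjusted p = 0.023). Tjp1, a scaffold of tight junctions, fell from 248 to 415 CPM in EpiSCs to 45.8 to 112 CPM in DE. Genes of the epithelial-mesenchymal transition fell in 12 and rose in 1 of 18. In 9 of those 12, EpiSC replicate 51 was the highest library, and in 9, EpiSC replicate 1 lay above all DE libraries. Zeb2, a repressor of epithelial genes, measured 12, 11.8, 10.1, 10.8 and 29.4 CPM in EpiSCs and 0.249 to 0.637 CPM in DE. Ovol2, which opposes such repressors, measured 3.68, 2.74, 2.56, 2.88 and 1.59 CPM in EpiSCs and 194, 146, 132 and 117 CPM in DE, a log2 change of 5.77 ± 0.26 (adjusted p = 3.37e-07).

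Proteoglycans, which hold growth factors at the cell surface, changed unevenly. Gpc4 measured 103, 68.7, 90.2, 80.1 and 96.7 CPM in EpiSCs and 1020, 1871, 1679 and 1473 CPM in DE, a log2 change of 4.11 ± 0.21, and Gpc3 rose by 2.46. Of the 22 heparan sulfate genes 6 rose and 10 fell, and the median changed sign, from -0.38 to 0.22, after length adjustment.

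Long genes of guidance, polarity and excitability were lower. Axon guidance members fell in 18 and rose in 8 of 31, with a median of -1.65 and a length-adjusted median of -1.17. Sema6a, a membrane semaphorin, measured 313, 233, 289, 244 and 286 CPM in EpiSCs and 6.76, 2.44, 4.69 and 5.48 CPM in DE, a log2 change of -5.83 ± 0.31 (adjusted p = 6.38e-07). Flrt3, an adhesion protein, rose from 3.1 to 32.1 CPM in EpiSCs to 101 to 249.7 CPM in DE. Planar cell polarity members, which orient cells within a sheet, fell in 10 and rose in 2 of 19, with medians of -1.56 before and -0.89 after length adjustment. In the libraries other than DE replicate 2, 4 rose and 10 fell, with a median of -1.46. With at least 10 counts in every library, 16 members remained, of which 2 rose and 7 fell, with a median of -0.38. Fat1, a giant cadherin, fell from 750.0 to 907 CPM in EpiSCs to 41.9 to 100.3 CPM in DE, and Celsr2, another, by 2.58 on the log2 scale. Cilium genes fell in 14 and rose in 3 of 22, with medians of -1.02 before and -0.51 after length adjustment. Foxj1, the regulator of motile cilia, measured 59.6, 28.3, 31.7, 23.8 and 7.72 CPM in EpiSCs and 0.743 to 2.02 CPM in DE. Ion channels fell in 20 of 33 and synapse genes in 15 of 21, with length-adjusted medians of -1.58 and -2.28. The median of the ion channels before adjustment was -2.10. With at least 10 counts in every library, 18 ion channels remained, of which 9 fell and 6 rose, with a median of -0.46. The synapse median under that filter was -2.25 over 10 genes. The filter also removes any gene under 10 counts in DE alone. Dlg4, a scaffold of synapses, measured 21.2 to 45.2 CPM in EpiSCs and 0.44 to 1.33 CPM in DE.

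Chromatin and RNA regulators were counted by list. The list around let-7, a microRNA that accumulates as embryonic cells mature, fell in 15 and rose in 3 of 22, with a median of -1.19 that was -0.42 after length adjustment. Lin28b, which blocks let-7 processing, measured 129.7, 166, 119, 149 and 149 CPM in EpiSCs and 10.2, 14.5, 11.3 and 14.8 CPM in DE, a log2 change of -3.49 ± 0.18 (adjusted p = 4.40e-07). Its paralogue Lin28a fell from 580.4 to 808 CPM in EpiSCs to 99.2 to 227 CPM in DE, and Ago2, which carries microRNAs, fell by 2.18 on the log2 scale.

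Of 14 DNA methylation genes 7 fell and 5 rose, with medians of -0.55 before and -0.17 after length adjustment. Dnmt3a, a de novo methyltransferase, measured 170.1 to 198 CPM in EpiSCs and 15.3 to 37.2 CPM in DE. Dnmt3b, its relative, measured 1139 to 1979 CPM in EpiSCs and 1073 to 1735 CPM in DE and did not pass (adjusted p = 0.4). Tet1, which oxidises methylcytosine, fell from 209 to 314 CPM in EpiSCs to 17.1 to 51.7 CPM in DE, and the maintenance enzyme Dnmt1 fell by 1.06. Polycomb and Trithorax genes fell in 13 and rose in 7 of 27, with a median of -0.04. Cbx7 and Phc1, of the PRC1 complex, fell from 130.3 to 196 CPM in EpiSCs to 6.6 to 12.5 CPM in DE and from 555 to 659.8 CPM in EpiSCs to 46.8 to 86.1 CPM in DE. Bmi1, also of PRC1, rose by 1.74, and Ezh2, the methyltransferase of PRC2, fell by 0.55. The remodellers Chd4 and Arid1a fell by 2.37 and 1.95 on the log2 scale, within a list of 27 in which 12 fell and 5 rose. The median of that list was -0.36, and -0.19 after length adjustment.

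Replication-dependent histones, whose transcripts normally lack a poly(A) tail, rose in 21 of 35 and fell in none in these poly(A)-selected libraries. Their sum was 18.7 to 59.6 CPM in EpiSCs, 1852 CPM in DE replicate 2 and 465 to 904 CPM in the other DE libraries. Without DE replicate 2, 18 rose and the median moved from 2.43 to 1.59. With at least 10 counts in every library, 7 histones remained, of which 4 rose and none fell, with a median of 0.95. Members low in EpiSCs can enter the 35 through their DE counts alone, so these counts do not give the direction of the family. Replication genes did not stand apart, with 8 up and 6 down of 24. Fen1, which trims Okazaki fragments, rose by 1.52. Mitosis genes rose in 5 and fell in 8 of 26. Top2a, which untangles chromosomes, fell from 901 to 1173 CPM in EpiSCs to 266 to 407 CPM in DE, and Mki67, a marker of cycling cells, measured 697.8, 347, 182, 384 and 199.7 CPM in EpiSCs and 79.9, 117, 83.6 and 154 CPM in DE.

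Of 21 tested genes of G1 control (cyclins, kinases, their inhibitors, Rb and E2F factors) 4 rose and 8 fell, with a median of -0.25. Cdk6 measured 113, 227, 113, 185 and 157 CPM in EpiSCs and 5.29, 2.57, 0.626 and 2.84 CPM in DE, a log2 change of -5.83 ± 0.55 (adjusted p = 1.17e-05). The D-type cyclins Ccnd1 and Ccnd2 fell by 2.72 and 2.67 on the log2 scale. Cdk4, the paralogue of Cdk6, rose by 0.97, and Ccne2, an E-type cyclin, by 1.41. The inhibitor Cdkn1b fell from 43.2 to 51.3 CPM in EpiSCs to 9.07 to 17.9 CPM in DE. Apoptosis and p53 genes rose in 10 and fell in 7 of 30. Bak1, a pore-forming effector of cell death, measured 55.1, 65.8, 73.2, 78.9 and 62.3 CPM in EpiSCs and 2.8, 1.11, 1.45 and 0.394 CPM in DE, a log2 change of -5.62 ± 0.50. Perp, a p53 target in the membrane, rose by 2.45.

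Interferon and innate sensing genes fell more often than they rose. Of 24 members 15 fell and 5 rose, with a median of -1.52. In 9 of the 15 that fell the groups did not overlap. The summed level of the list did overlap, at 522 to 803 CPM in DE and 633 to 839 CPM in EpiSCs. DE replicate 2 was the highest of the DE libraries. Isg15, an interferon-induced modifier, measured 3.53, 35.8, 5.67, 14.8 and 27.8 CPM in EpiSCs and 1.07, 0.0332, 0.0391 and 0.0455 CPM in DE, and its log2 change of -6.19 was -8.67 without DE replicate 2. EpiSC replicates 1 and 4 were the lowest EpiSC libraries for Isg15, and EpiSC replicate 1 lay above all DE libraries for 10 of the 15 members that fell. Ifitm2, an interferon-induced membrane protein, rose, from 143 to 158 CPM in EpiSCs to 438, 190.2, 202 and 230.4 CPM in DE, as did Nfkbia and Rela of the NF-kappaB pathway, by 1.96 and 1.78. Trim proteins, ubiquitin ligases of which several act in antiviral defence, fell in 26 and rose in 5 of 43.

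Markers of other cell types were compared by their summed level. Each list was also summed without its most abundant member. The lists were chosen with earlier results of these data known, which limits the p-values of all these sums. A call that appears only without 1 member depends on the choice of members. A neural list summed to 406 to 901 CPM in EpiSCs and 74.3 to 144 CPM in DE (two-sided exact permutation test, p = 0.00794, adjusted p = 0.0317). The intermediate filament gene Nes, at 499 ± 173 CPM in EpiSCs and 10.5 ± 6.73 CPM in DE, carried that difference, and without it the sums overlapped (exact permutation p = 0.238). Of 12 tested neural genes 5 fell and 4 rose, among them Rax, an eye field factor, which measured 22.2 ± 14.7 CPM in DE and 0.441 ± 0.548 CPM in EpiSCs. Of the 8 tested transcription factors of the list 4 rose and 2 fell. The neural factors Neurog1, Neurog2 and Olig3 were at 0 in all DE libraries. They had at most 2, 3 and 0 counts in any library of either group, so they do not separate the groups.

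A mesoderm and endothelial list summed to 165 to 586 CPM in EpiSCs and 73.5 to 180 CPM in DE (exact permutation p = 0.103). It turned on T, the factor of the primitive streak, which fell from 274.5 ± 179.5 CPM to 8.51 ± 7.41 CPM. Without T the sum was higher in DE by 95.2 CPM (exact permutation p = 0.0159, adjusted p = 0.0317). Gata1, a factor of blood cells, measured 33.6 ± 16.4 CPM in DE and 0.197 ± 0.144 CPM in EpiSCs, and Pdgfra, a growth factor receptor of mesoderm and of some endoderm, 48.6 ± 15.8 CPM and 7.24 ± 3.99 CPM. Tal1, a partner of Gata1 in blood, was at 0 in all DE libraries, and Kdr, a receptor of endothelium, measured 0.0498 ± 0.0995 CPM in DE. Members of the list thus did not move in 1 direction.

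A visceral endoderm list, in part shared with definitive endoderm, summed to 147 to 163 CPM in EpiSCs and 144 to 279.9 CPM in DE (exact permutation p = 0.183). Without Lrp2, an uptake receptor that fell from 128.9 ± 10.2 CPM to 2.21 ± 0.602 CPM, the sum was higher in DE by 167.7 CPM (exact permutation p = 0.00794, adjusted p = 0.0317). The members that rose included Rbp4, a carrier of vitamin A, at 42.1 ± 25.1 CPM in DE and 0.951 ± 0.373 CPM in EpiSCs, and the zinc importer Slc39a4. The defining plasma proteins were at or near 0 in DE, with Ttr at 0.0254 ± 0.0509 CPM, Afp at 0.0763 ± 0.153 CPM and Apoc2 at 0 in every library. In no library of either group did Ttr exceed 2 counts or Afp 6 counts, so these genes do not separate the groups. Apoe, a lipid carrier made by visceral endoderm and other cells, measured 48.6, 41.6, 99.1, 46.7 and 67 CPM in EpiSCs and 1137, 532, 549 and 564 CPM in DE. Of 16 lipoprotein and plasma protein genes 7 rose and 2 fell.

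The DE levels were also set against EpiSCs of other backgrounds, with 7 further libraries of PWK, B6.129 F1 and DBA mice. All 4 DE libraries lay outside the range of all 12 EpiSC libraries for 6708 genes, 47.6% of those tested, 3409 of them above and 3299 below. Of the 8737 genes that passed the test within B6, 6612 (75.7%) lay outside that wider range. Among the 182 genes for which values by library were compiled for the text, 168 did. Of these 182, 99 meet a rule built mainly on large changes without overlap within B6. The other 83 were chosen after their values were seen. A high share was therefore set by the choice of genes and is not a result. Of the 182, the genes that passed within B6 and came within the range of other backgrounds were Sec61g, Slc2a3, Pfkl, Chac1, Slc7a11, Atf3, Rrm2, Dusp6, Lamb1 and Bmi1.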

How the data were processed

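RNA was selected for poly(A) and sequenced as stranded read pairs, per the labels' protocols. The deposited table holds raw counts per Ensembl gene identifier. Salmon, featureCounts, DESeq2 and mm10 are named, without versions or roles, in the submitters' processing notes. Whether strand was used in counting is not given in the sources used here. EpiSC libraries of other strains come from a second deposited table of counts and served as a range only. ATAC samples and DE of other strains are not analysed here. Of 29555 identifiers, 29270 matched a symbol. No replicate pair agreed within sampling noise (chi-square per gene of at least 36.4).

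Counts were tested with edgeR 4.0.16 in R 4.3.3 on the 9 libraries, with TMM scaling, the filter filterByExpr, glmQLFit in its robust form, and p-values adjusted after Benjamini and Hochberg. A gene was called at an adjusted p under 0.05, and the standard error is the log2 change divided by the square root of the F statistic. The alternatives were DESeq2 1.42.0, RLE scaling, total library size, a minimum of 10 counts in each library, no filter, a 2-fold minimum, autosomes only, each library left out in turn, and the replicate number as a block. Added after the data were seen were a fit without chromosome 8, the length adjustment, and the summed marker levels with each library left out. The fit across genes was run on simulated data with known folds, without a trend along gene length and without a library that stood apart. That run checks the code and does not show how the fit behaves on these libraries.

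The members and the 53 gene lists and 40 symbol families were chosen with earlier results of these data known, so lists are described by counts and medians beside the background. Only the summed levels of 4 lists that mark other cell types were tested, with an exact permutation test over the libraries, and these lists share that limit. The rule for named genes took the 3 markers, the 2 largest rises and the 2 largest falls of each list or family (mean log2 CPM of at least 2, no overlap), and the 12 largest in each direction over all genes. Of the 182 genes with values by library, 99 meet it. The other 83, and the members of marker lists given with a mean, were chosen after their values were seen. Promoters and gene lengths came from RefSeq tables of GRCm38.p6, and coordinates refer to that build. Some genes are not reported here.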

Additional observations from a re-analysis of the deposited data

Results flagged for a closer look

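Each group of 4 or 5 libraries was checked for a library whose gap to its nearest neighbour was large against the range of the group (Dixon's 95% critical value). Chance gives such a gap in about 1 in 20 groups, and 37 of 398 groups showed one.

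DE replicate 2 was the high library in most cases. It stood above the other DE libraries for Pou5f1 (37.8 CPM against at most 6.34), Sec61b (453.5 against at most 156), Sec61g (16.4 against at most 5.38), Psma7 (895 against at most 410.1), Ndufv1 (329 against at most 196) and Ldha (10310 against at most 6425). The same held for Atf4 (310.5 against at most 198), Nupr1 (2.29 against at most 0.531), Apoe (1137 against at most 564), Eef1a1 (7313 against at most 4441), Cfc1 (394 against at most 222), Dkk1 (725 against at most 260.4), Fgf8 (1225 against at most 694.7) and Fgf4 (0.407 against 0). It held also for Spry2 (5.14 against at most 2.14), Krt7 (361 against at most 136.5), Isg15 (1.07 against at most 0.0455) and Ifitm2 (438.5 against at most 230.4). Its summed levels stood apart for complex I (6344 CPM against at most 2987), complexes III to V (16180 against at most 9038) and interferon genes (803 against at most 568.5). It was low for mt-Nd5 (538 CPM against at least 588).

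Other DE libraries stood apart in 3 cases. DE replicate 51 was high for Lamp1 (712 CPM against at most 492) and low for the summed mesoderm and endothelial markers (73.5 CPM against at least 164). DE replicate 44 was low for Notch1 (0.861 CPM against at least 5.66).

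Among EpiSCs, replicate 51 was high for Sec24d (34.0 CPM against at most 19.2), Lamp1 (414 against at most 276), Psma7 (236 against at most 206), mt-Cytb (3800 against at most 3243) and Zeb2 (29.4 against at most 12), and low for Mthfd2 (178 against at least 264) and Tm7sf2 (14.7 against at least 20.8). Replicate 1 was high for Top2a (1173 CPM against at most 977) and low for Sdhb (73.5 against at least 85.1), Rps12 (86.8 against at least 137) and Hspg2 (153 against at least 368). Replicate 2 was high for Tram1 (91.1 CPM against at most 82.2).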

How the results depend on the processing

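The counts of genes called, 4430 higher and 4307 lower, stayed within 1.5 times under every alternative run, the lowest being 2973 higher with a fold of at least 2 and the highest 4775 lower with no filter. Leaving out 1 library gave 4030 to 4561 higher and 3827 to 4586 lower, and DESeq2 gave 4448 and 4757. Scaling by total library size shifted the median over all genes from -0.01 to -0.10 on the log2 scale. The labels do not say whether equal replicate numbers mark the same line or culture. The correlation of deviations was 0.096, 0.088, 0.183 and 0.237 for the 4 equal numbers, and at most 0.032 for unequal numbers. Each equal number was the highest for its library, which is a hint of pairing from the data only. With the replicate number as a block, 3792 genes were higher and 3939 lower, against 4171 and 4026 in the same 8 libraries without it. Under the block 10 of 37 nuclear complex I subunits rose.

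Of 3061 values of single genes under the alternatives, 3053 kept direction and side of the threshold, 5 lost a call (all of Slc7a11), 3 gained one and none changed sign. Of 1669 list medians, 124 moved by more than the spread and 3 changed sign, namely the neural list without chromosome 8 (0.64), heparan sulfate after length adjustment (0.22) and cytochrome P450 enzymes with at least 10 counts (0.77). The difference of the neural sum lost its call without its most abundant member (-26.9 CPM) and in each fit that left out 1 library (-567 to -443 CPM), where fewer arrangements raise the smallest p. The mesoderm sum changed sign without T (95.2 CPM), the visceral sum gained a call without Lrp2 (167.7 CPM), and the feeder sum gained one by total library size (-4248 CPM). The other causes were not tested. No alternative gives the length adjustment for histones and mitochondrially encoded genes, whose lengths the table lacks. Genes under a few counts are limited by depth, and rows at 0 in a single library limit single genes further.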

Other observations

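Some subunits moved apart from the rest of their complex. Ndufa9, a subunit of complex I, measured 13.4, 8.23, 0, 0 and 3.33 CPM in EpiSCs and 315, 174, 187 and 204 CPM in DE, a log2 change of 5.47 (6.26 without EpiSC replicate 1) in a complex with a median of 0.84. Rps12, of the small ribosomal subunit, fell from 86.8 to 156 CPM in EpiSCs to 1.06 to 2.75 CPM in DE. How reads were counted for these genes was not tested.

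EpiSC libraries differed among themselves in endoderm genes. Cer1 was 161, 14.1, 139, 86.8 and 3.62 CPM, Krt8 174, 30.9, 305, 82.2 and 14.2 CPM and Bmp2 41.2, 7.96, 44.6, 20.8 and 4.21 CPM in EpiSC replicates 1, 2, 4, 44 and 51, lowest in replicates 2 and 51 for each. The summed level of the definitive endoderm list was 1301 to 2294 CPM in EpiSCs, highest in replicate 44 and lowest in replicate 51, and 11210 to 23440 CPM in DE.

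Other families were counted beside the background of 31.5% higher and 30.6% lower. Transmembrane proteins named Tmem, of varied function, rose in 88 and fell in 28 of 186. Solute carriers rose in 83 and fell in 53 of 231. Genes of the hypoxia response rose in 8 and fell in 3 of 19. Cadherins and protocadherins rose in 7 and fell in 18 of 56, with a median of -1.59 that was -1.05 after length adjustment. With at least 10 counts in every library, 20 of them remained, with a median of -0.1. Small GTPases of the Rab family, which direct vesicles, rose in 23 and fell in 12 of 53.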
